A study of Mus musculus with 3 samples.

Results

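Expression of 10 genes of the p53 arrest and stress response was followed in Mef2c-deficient and control multipotent progenitors (MPPs). The genes were Trp53, which encodes p53 itself, and Cdkn1a, Mdm2, Trp53inp1, Ccng1, Phlda3, Sesn1, Sesn2, Btg2 and Perp. They were taken by gene name and are 10 of the 27670 gene names on the array, represented by 19 of its 41174 mouse probes. All 19 probes were well above background in all 6 libraries, and all passed the filter that kept 32909 probes for testing.

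The mutant mice carried Mx1-Cre and floxed Mef2c alleles (Mx1-cre+ Mef2cfl/fl), and the control mice carried the floxed alleles without Cre (Mef2cfl/fl). Both genotypes were injected on 4 consecutive days with 250 µg of poly(I:C), which mimics viral RNA and through interferon switches on the Mx1 promoter, and marrow was taken 2 days after the last dose. The promoter answers interferon in many cell types, so deletion need not be limited to progenitors. With no Cre-bearing control an effect of the recombinase and the loss of Mef2c cannot be told apart. From each genotype 15000 lineage-negative c-kit+ Sca-1+ cells were sorted for each of 3 samples, and each of 3 two-colour arrays paired 1 mutant sample in Cy3 with 1 control sample in Cy5. The labels give neither the age of the mice nor whether samples came from separate or pooled animals, so the spread that p-values measure may be technical. As labelled every mutant carried the same dye, and genotype and dye then cannot be told apart.

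p53 is a transcription factor that is kept scarce by the ubiquitin ligase Mdm2 and accumulates after DNA damage and other stress. It then switches on genes that stop the cell cycle (Cdkn1a, which encodes the inhibitor p21, and Btg2), that limit oxidative and metabolic stress (Sesn1, Sesn2, Trp53inp1), that restrain survival signalling (Phlda3), and its own inhibitor Mdm2. In blood stem and progenitor cells p53 is known to favour quiescence at rest and arrest or death after damage. p53 is controlled largely at the level of its protein, which an expression array does not measure.

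RefSeq promoter windows, from 250 bases before to 50 bases after an annotated start on GRCm38.p6, were on hand for 8 of the 10 genes, as 10 windows. The 5 shown carry a match to a p53 half-site, the 10-base unit to which p53 binds in pairs, or, for Btg2, the cyclic AMP response element of early response genes. The motifs were chosen after the values were seen. Capitals mark the matches, and each sequence runs 5′ to 3′ on the strand of the gene.
Sesn1 (chr10:41887189-41887488, plus strand): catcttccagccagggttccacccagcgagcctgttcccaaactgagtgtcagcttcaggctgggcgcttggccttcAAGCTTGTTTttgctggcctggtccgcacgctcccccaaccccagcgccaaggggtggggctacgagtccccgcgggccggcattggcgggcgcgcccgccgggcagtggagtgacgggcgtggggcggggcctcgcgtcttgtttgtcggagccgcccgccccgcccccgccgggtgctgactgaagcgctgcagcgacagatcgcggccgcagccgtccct
Cdkn1a (chr17:29090729-29091028, plus strand): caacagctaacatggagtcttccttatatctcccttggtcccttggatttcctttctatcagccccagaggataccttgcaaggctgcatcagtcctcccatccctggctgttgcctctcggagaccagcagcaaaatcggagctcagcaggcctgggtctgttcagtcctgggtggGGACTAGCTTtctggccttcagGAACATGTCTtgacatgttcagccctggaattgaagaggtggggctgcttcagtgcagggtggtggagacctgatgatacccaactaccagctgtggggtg
Mdm2 (chr10:117710709-117711008, minus strand): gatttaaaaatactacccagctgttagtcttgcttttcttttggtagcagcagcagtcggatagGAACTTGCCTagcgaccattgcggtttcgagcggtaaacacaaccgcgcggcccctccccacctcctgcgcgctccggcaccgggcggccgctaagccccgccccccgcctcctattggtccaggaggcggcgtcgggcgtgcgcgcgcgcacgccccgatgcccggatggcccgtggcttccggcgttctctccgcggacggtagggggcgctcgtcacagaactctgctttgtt
Ccng1 (chr11:40755237-40755536, minus strand): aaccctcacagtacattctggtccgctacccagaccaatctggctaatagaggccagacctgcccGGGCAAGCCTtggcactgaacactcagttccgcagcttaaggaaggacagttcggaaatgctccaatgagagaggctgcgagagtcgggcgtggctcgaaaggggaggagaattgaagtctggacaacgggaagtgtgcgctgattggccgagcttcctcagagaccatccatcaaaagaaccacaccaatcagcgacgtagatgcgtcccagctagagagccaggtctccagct
Btg2 (chr1:134079106-134079405, minus strand): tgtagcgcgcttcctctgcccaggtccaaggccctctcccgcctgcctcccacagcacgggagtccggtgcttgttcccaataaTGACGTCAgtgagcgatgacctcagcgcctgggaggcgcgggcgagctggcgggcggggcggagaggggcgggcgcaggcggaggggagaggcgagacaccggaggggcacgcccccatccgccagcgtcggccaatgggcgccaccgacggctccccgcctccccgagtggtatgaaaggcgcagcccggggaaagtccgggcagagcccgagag
The upstream Cdkn1a window held 2 half-sites, GGACTAGCTT and GAACATGTCT, which begin 73 and 51 bases before the annotated start. One half-site began 173 bases before the Sesn1 start (AAGCTTGTTT), 186 before that of Mdm2 (GAACTTGCCT) and 185 before that of Ccng1 (GGGCAAGCCT), and Trp53 had one 75 bases before its start (GGACTTGCCC). A half-site was present in 5 of the 10 windows and in 8.36% of all 32851 mouse windows. A pair of half-sites with a gap of at most 13 bases, as in Cdkn1a, was present in 24 windows (0.0731%). The Btg2 window held TGACGTCA, which occurs in 1.79% of windows, 166 bases before the start. Both motifs read the same on both strands and did not overlap each other. These matches describe the letters in the windows and say nothing of binding in these cells.

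From 73.4% to 80.3% of spots exceeded background clearly in a given channel, and 0 spots were saturated. The sort markers were measured well above background in all 6 libraries, Kit with normalized log2 signals of 12.06 to 13.01 in mutants and 12.70 to 13.07 in controls, and Ly6a, which encodes Sca-1, with 14.64 to 15.01 in mutants and 13.77 to 14.12 in controls. Mef2c itself had a mean log2 ratio of -0.26 ± 0.61 by probe A_51_P135802 and 0.52 ± 0.48 by probe A_52_P282110 (SD, n = 3), a probe that cleared background in 2 mutant libraries and 1 control library. As the floxed exon is unnamed in the labels, neither probe checks the deletion. One array has an unsettled sign: the deposited ratios of arrays 1 and 3 ran opposite to the scanner's Cy5 over Cy3 ratio (r = -0.947 and -0.939 across spots), whereas those of array 2 ran with it (r = 0.935). Whether the dyes of array 2 were swapped is not settled by the labels and files. Signs here take the mutant as Cy3 throughout, as labelled, and values with array 2 turned are given where they bear on a result. With these signs the log2 ratios of all kept probes correlated weakly between arrays. The r was 0.286 for arrays 1 and 2, 0.098 for 1 and 3 and -0.013 for 2 and 3.

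As labelled, most of the 19 member probes had lower signal in Mef2c-deficient MPPs, and none passed the adjusted test. The mean log2 ratio, mutant over control, was below 0 for 15 of the 19 member probes, where 51% of all probes were below 0. The members' median was -0.57, and -0.18 with array 2 turned. The lists of cell death targets and of other p53 targets, given below, had medians of -0.07 and -0.09. Sesn1 and Trp53inp1 were low with all their probes and on all 3 arrays. Sestrin 1, the product of Sesn1, restrains mTORC1 and reactive oxygen, and Trp53inp1 encodes a nuclear and autophagy-linked partner of p53. The early response gene Btg2 had the lowest means of the members, but they rested largely on array 1, without which they were between -0.64 and -0.39. As the cells were measured in bulk, fewer cells that express a gene and less RNA per cell cannot be told apart.

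By limma, 0 of 32909 probes (0%) had an adjusted p under 0.05, members included (adjusted p from 0.544 to 0.908 for the 19 probes). At an unadjusted p under 0.05, 5 member probes were lower and 0 higher, where 4.2% of all probes were lower and 4.94% higher (1382 and 1626). Median centring in place of loess moved that split over all probes to 2739 lower and 802 higher and the members' count to 11. The members' count was 1 without array 2, where 3.4% of all probes were lower, and 8 without array 3, where 4.73% were. All 3 mutant libraries lay below all 3 control libraries for 6 member probes, against 9.9% of all probes, and above them for 0, against 7.53%. The log2 ratio was below 0 on all 3 arrays for 8 member probes, against 17.9% of all probes, and above 0 on all 3 for 0, against 16%. A log2 ratio below -1 was seen for 6 member probes on array 1, 3 on array 2 and 0 on array 3, against 8.47%, 3.56% and 4.89% of all probes. Probes of one gene read the same transcripts in the same libraries, so these counts come from few genes. The 5 probes lower at an unadjusted p under 0.05 belong to Sesn1 and Trp53inp1. The 6 with all mutants below all controls belong to these genes and Ccng1. The median log2 ratio of the member probes was -0.57, against -0.01 over all probes, and it was -0.57, -0.75 and -0.29 on arrays 1, 2 and 3, against -0.02, -0.01 and -0.01. With array 2 turned the members' median was -0.18, 0 members reached an unadjusted p under 0.05 in either direction, where 1.93% of all probes were lower and 1.43% higher, and 2 members were below 0 on all 3 arrays and 0 above it, against 10.6% and 10.5%.

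**Figure D1:**
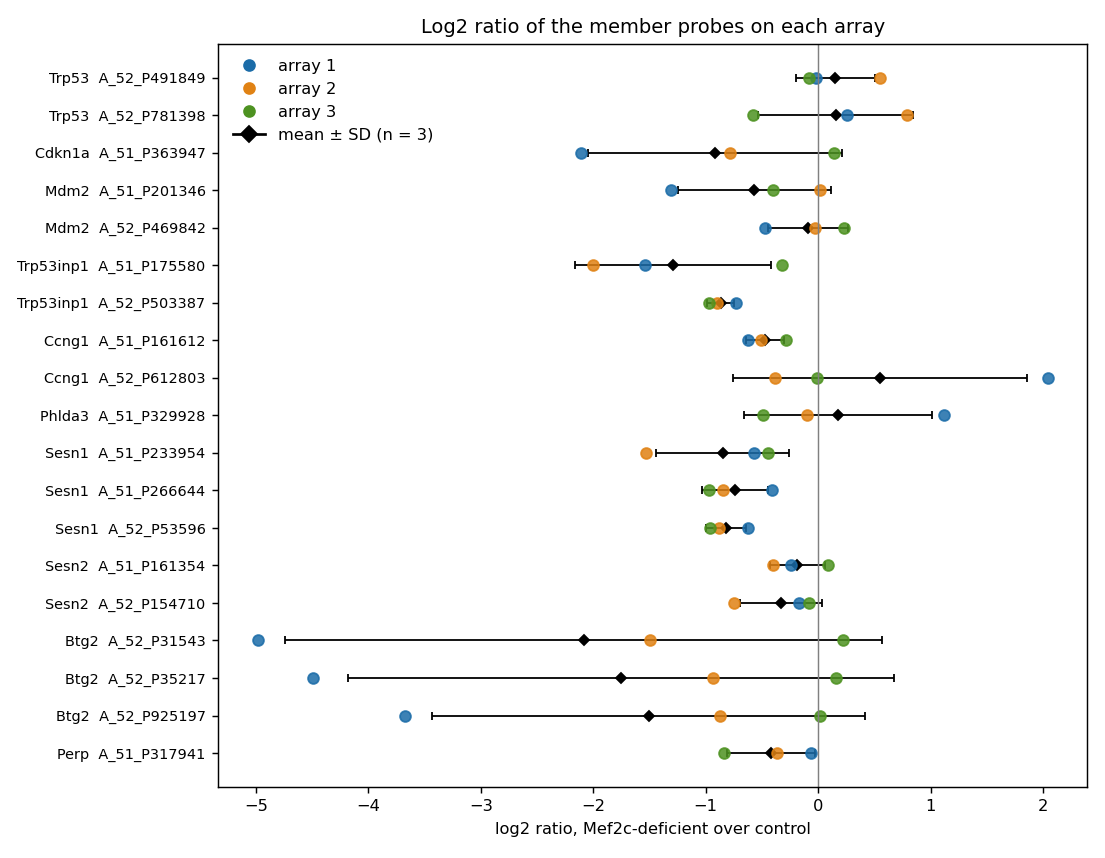
Log2 ratio of Mef2c-deficient over control MPPs for each of the 19 member probes on arrays 1, 2 and 3 (coloured points), with the mean ± SD of the 3 arrays (black). The probes of Sesn1 and Trp53inp1 lie below 0 on every array, while the Btg2 probes range from -4.98 on array 1 to 0.22 on array 3.

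Trp53 itself differed between the genotypes by less than the spread between arrays. Its probe with 10 spots on each array (A_52_P491849) had normalized log2 signals of 13.04, 13.61 and 13.17 in mutant libraries 1, 2 and 3, against 13.06, 13.06 and 13.25 in control libraries. The groups overlapped, with mutant library 2 the highest. The log2 ratios were -0.02, 0.55 and -0.08, with a mean of 0.15 ± 0.35 (SD, n = 3). The second probe (A_52_P781398), for a stretch 9176 bases upstream on chromosome 11, had ratios of 0.25, 0.79 and -0.58 and a mean of 0.15 ± 0.69. Both probes were highest on array 2, and the adjusted p by limma was 0.835 and 0.875. With array 2 turned their means were -0.22 and -0.37, so the sign of the Trp53 ratio rests on that array.

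Mdm2, the ligase that marks p53 for degradation and is itself a p53 target, had signals of 11.15, 11.65 and 11.08 in mutants, against 12.46, 11.63 and 11.48 in controls, by the probe with 10 spots per array (A_51_P201346). Control library 1 was the highest of the 6 and the groups overlapped. Ratios on the log2 scale were -1.31, 0.02 and -0.41, with a mean of -0.57 ± 0.68 (SD, n = 3; adjusted p = 0.590 by limma). The probe 3447 bases further downstream on chromosome 10 (A_52_P469842) had ratios of -0.47, -0.03 and 0.23 and a mean of -0.09 ± 0.36. Array 1 was the lowest for both probes. Without array 1 the means were -0.19 and 0.10.

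Cdkn1a, the gene of the cell cycle inhibitor p21, and the gene whose window above holds the pair of half-sites, varied more among controls than among mutants. Its single probe (A_51_P363947) had signals of 10.58, 10.53 and 10.46 in mutant libraries, against 12.69, 11.31 and 10.33 in control libraries. As labelled the mutants lay within a narrow band, control library 1 was the highest and control library 3 the lowest of the 6. The SD of the log2 signal was 0.06 in mutants and 1.19 in controls (n = 3 each). This gave log2 ratios of -2.11, -0.79 and 0.14, with a mean of -0.92 ± 1.13 (SD, n = 3; adjusted p = 0.566 by limma). Without array 1 the mean was -0.32, and with array 2 turned it was -0.40. Turning array 2 also exchanges its signals of 10.53 and 11.31, so the narrow band of the mutants holds only with the dyes as labelled.

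The repeated spots of the Trp53, Cdkn1a and Mdm2 probes measured the error of a ratio within an array. The SD between spots of the Cdkn1a probe was 0.05, 0.03 and 0.12 on arrays 1, 2 and 3, from 10, 9 and 9 spots that were not marked as outliers. For Trp53 it was 0.02, 0.04 and 0.11, and for Mdm2 0.08, 0.07 and 0.04. The SD between arrays of the same 3 probes was 1.13 for Cdkn1a, 0.35 for Trp53 and 0.68 for Mdm2, so the arrays differed by more than the spots did. Over all 189 kept probes with 10 spots, the median was 0.07 between spots and 0.37 between arrays. The spot spread covers the reading of an array and not the sorting, amplification and labelling of the cells.

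**Figure D2:**
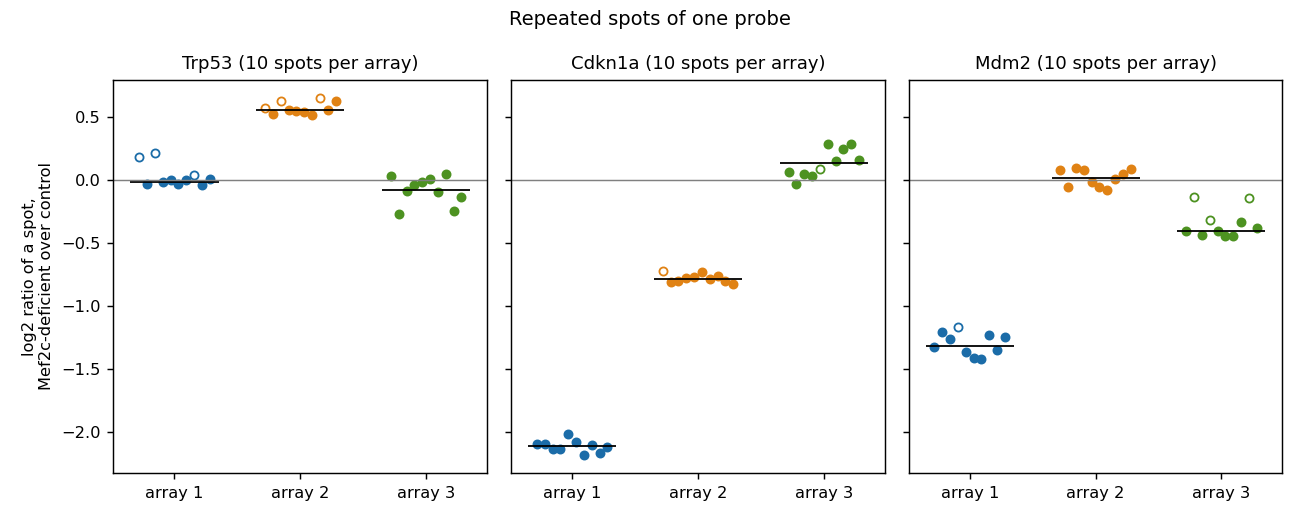
Log2 ratio of each of the 10 spots of the Trp53, Cdkn1a and Mdm2 probes on arrays 1, 2 and 3, with the mean of the spots used as a line and spots marked as outliers as open circles. For Cdkn1a the spots of each array form separate bands around -2.11, -0.79 and 0.14.

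Btg2, an antiproliferative gene that is both a p53 target and an early response gene, had the lowest mean ratios of the members. Its probe A_52_P925197 had signals of 11.47, 12.51 and 12.74 in mutant libraries, against 15.14, 13.38 and 12.72 in control libraries. Control library 1 was the highest and mutant library 1 the lowest, and on array 3 the genotypes were nearly equal. Its log2 ratios were -3.67, -0.87 and 0.02, with a mean of -1.51 ± 1.93 (SD, n = 3; adjusted p = 0.564 by limma). The other probes of the gene, A_52_P35217 and A_52_P31543, had -4.49, -0.93 and 0.16 and -4.98, -1.50 and 0.22 on the same arrays. Thus all 3 probes, whose starts lie up to 2087 bases apart on chromosome 1, gave the same order of arrays. Without array 1 the 3 means were -0.43, -0.39 and -0.64, and with array 2 turned they were -0.93, -1.13 and -1.09.

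Ccng1 encodes cyclin G1, a p53 target that recruits a phosphatase to Mdm2. Its probe A_51_P161612 had signals of 11.12, 11.64 and 11.49 in mutants, against 11.74, 12.15 and 11.78 in controls. The groups did not overlap, though mutant library 2 came close to control library 1. As log2 ratios these were -0.62, -0.51 and -0.29, with a mean of -0.47 ± 0.17 (SD, n = 3; adjusted p = 0.562 by limma). The other probe, 1986 bases downstream on chromosome 11 (A_52_P612803), had ratios of 2.04, -0.38 and -0.01 and a mean of 0.55 ± 1.31. The probes went opposite ways on array 1, where the downstream probe had its lowest signal in control library 1 (8.06). With array 2 turned the upstream probe had a mean of -0.13.

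**Figure D3:**
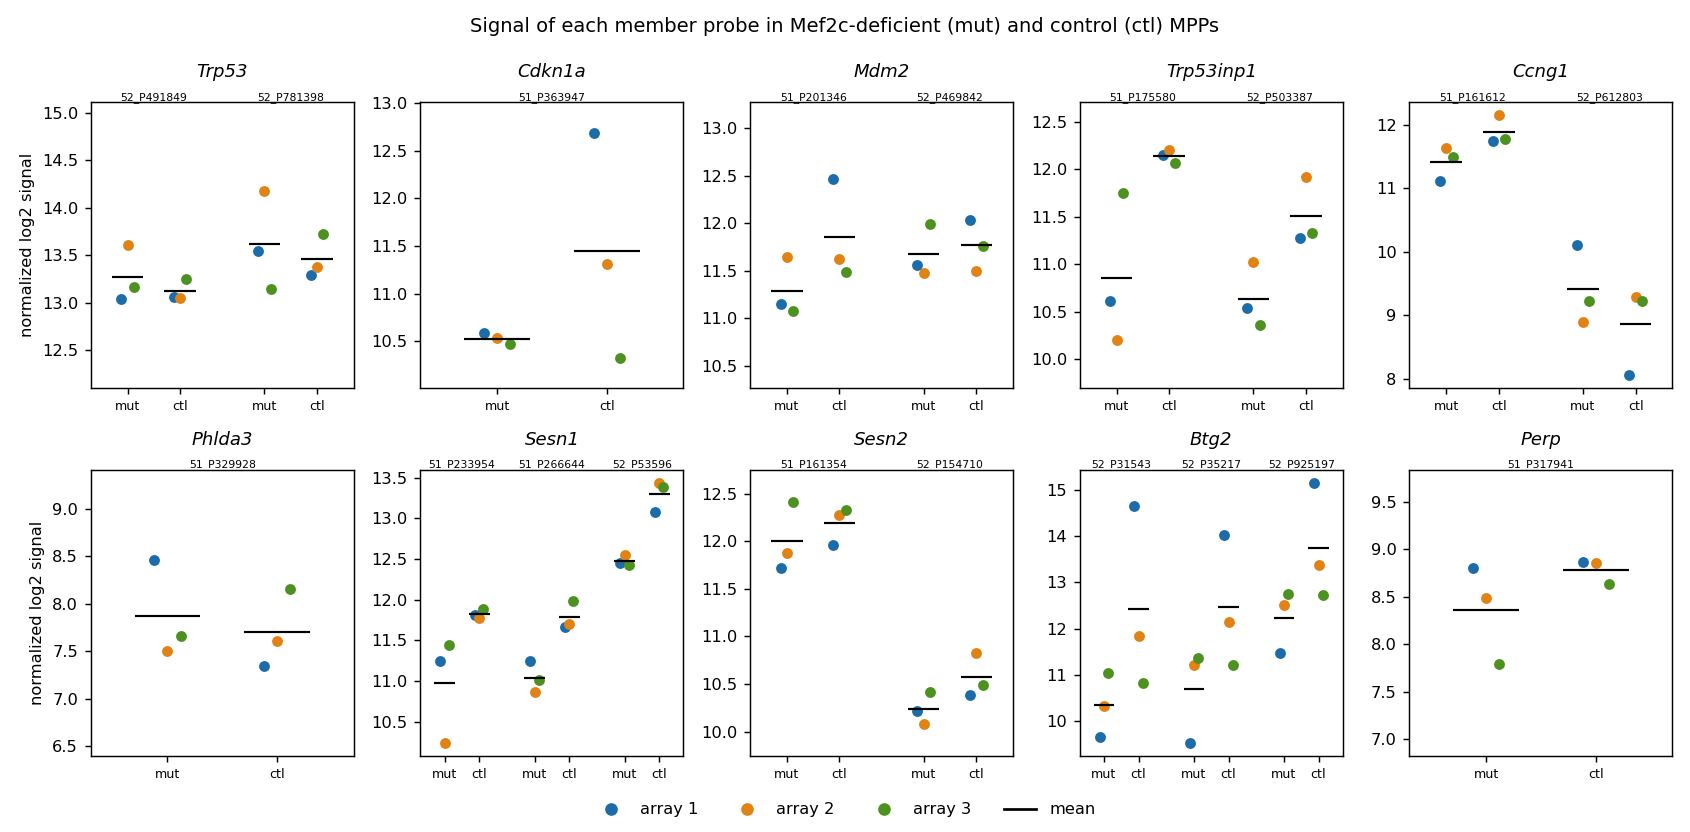
Normalized log2 signal of each member probe in Mef2c-deficient (mut, left) and control (ctl, right) libraries, coloured by array, with the group mean as a line. The 3 Sesn1 probes and both Trp53inp1 probes have all mutants below all controls, and the spread of Btg2 and Cdkn1a is widest in the controls, with library 1 on top.

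All 3 Sesn1 probes separated the genotypes. Probe A_52_P53596 had signals of 12.45, 12.55 and 12.43 in mutant libraries, against 13.07, 13.43 and 13.38 in control libraries. The groups did not overlap, and each genotype varied little, with an SD of 0.06 in mutants and 0.19 in controls (n = 3 each). The log2 ratios were -0.62, -0.88 and -0.96, with a mean of -0.82 ± 0.18 (SD, n = 3), which is 1.77-fold lower in mutants (adjusted p = 0.544 by limma).

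The other Sesn1 probes gave similar means. A_51_P266644, whose listed position spans 4163 bases of chromosome 10, against 59 or 60 for the other member probes, had signals of 11.25, 10.86 and 11.02 in mutants, against 11.66, 11.71 and 11.98 in controls. A_51_P233954, the most downstream, had 11.24, 10.24 and 11.44 in mutants, against 11.81, 11.77 and 11.89 in controls. For both probes every mutant lay below every control. Their mean log2 ratios were -0.74 ± 0.29 and -0.85 ± 0.59 (SD, n = 3). The probes lie 5691 and 903 bases upstream of the last one, so 3 places along the gene gave means between -0.74 and -0.85. Without array 1 the means were -0.92, -0.91 and -0.99. With array 2 turned they were -0.23, -0.18 and 0.17, so the separation holds only with the dyes as labelled.

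Sesn2, the stress-induced relative of Sesn1 that senses leucine, did not show such a separation. Its probe for the RefSeq transcript (A_51_P161354) had signals of 11.72, 11.88 and 12.41 in mutants, against 11.96, 12.28 and 12.33 in controls. The groups overlapped. The mean log2 ratio was -0.19 ± 0.25 (SD, n = 3), and that of the probe for a cDNA clone 884 bases downstream on chromosome 4 (A_52_P154710) was -0.33 ± 0.36. The difference between Sesn1 and Sesn2 was not tested.

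Trp53inp1 was low with both probes. The more upstream one (A_52_P503387) had signals of 10.54, 11.02 and 10.36 in mutants, against 11.27, 11.92 and 11.33 in controls. The groups did not overlap. The log2 ratios were -0.73, -0.90 and -0.97, with a mean of -0.87 ± 0.12 (SD, n = 3), which is 1.82-fold lower in mutants (adjusted p = 0.544 by limma). The probe 2994 bases downstream on chromosome 4 (A_51_P175580) had 10.61, 10.20 and 11.75 in mutants, against 12.15, 12.21 and 12.07 in controls. Again every mutant lay below every control, with mutant library 3 the closest to its control. The log2 ratios were -1.54, -2.01 and -0.32, with a mean of -1.29 ± 0.87. Without array 1 the means of the probes were -0.93 and -1.16, and with array 2 turned they were -0.27 and 0.05.

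Phlda3, which competes with the kinase Akt for membrane lipids, and Perp, a membrane protein of cell junctions and cell death, had 1 probe each. Phlda3 had signals of 8.46, 7.50 and 7.66 in mutants, against 7.35, 7.60 and 8.15 in controls. Mutant library 1 was the highest and control library 1 the lowest. Its log2 ratio was 1.12, -0.10 and -0.49, with a mean of 0.18 ± 0.84 (SD, n = 3). Perp had 8.80, 8.49 and 7.80 in mutants, against 8.86, 8.85 and 8.63 in controls. The groups overlapped by a single library, since mutant library 1 lay above control library 3. The mean log2 ratio of Perp was -0.42 ± 0.39 (SD, n = 3; adjusted p = 0.606 by limma).

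Control library 1 was the highest of the 6 libraries for 7 member probes, against 23.3% of all probes. These were the 3 probes of Btg2, both of Mdm2, and those of Cdkn1a and Perp. It exceeded the mean of the other controls by 2.09 to 3.31 for the Btg2 probes and by 1.87 for Cdkn1a on the log2 scale, and by 0.91 and 0.41 for the Mdm2 probes. For the Sesn1 and Trp53inp1 probes its difference from the other controls was between -0.35 and 0.01. The same library held the highest signal of 15 of 16 measured immediate early and heat shock genes, a list whose median log2 ratio was -4.68, -0.36 and -0.03 on arrays 1, 2 and 3. Within it Atf3 had ratios of -6.65, -0.27 and -0.95, Egr1 -6.11, -1.91 and 0.19, and Zfp36 -5.32, -1.21 and -0.53. Fos had -6.49 and -0.64 on arrays 1 and 2, with nearly equal signals on array 3. Neutrophil marker genes were also highest there, 6 of 7, with a summed linear signal of 9531 to 13979 in mutants and 12752.5 to 94933 in controls. The part of these genes in the Btg2, Cdkn1a and Mdm2 ratios was not tested. Without array 1 the members' median was -0.40, and 4 probes, those of Sesn1 and the upstream one of Trp53inp1, remained lower at an unadjusted p under 0.05, against 2.32% of all probes.

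**Figure D4:**
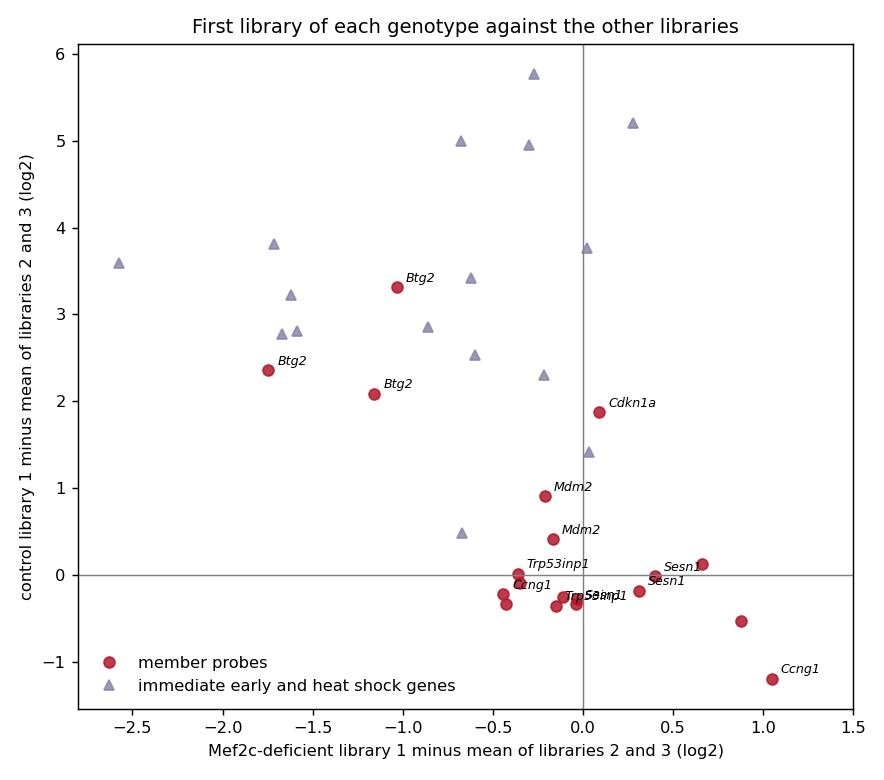
Signal of library 1 minus the mean of libraries 2 and 3 (log2), for the Mef2c-deficient samples across and the control samples up, with member probes as circles and immediate early and heat shock genes as triangles. The Btg2 and Cdkn1a probes lie high in control library 1 with the early response genes, and the Sesn1 and Trp53inp1 probes lie near 0 on the vertical axis.

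Other cell types were followed through their markers, all well above background in all 6 libraries except 1 of the 5 T cell genes. Erythroid markers had a summed linear signal of 4392 to 10793 in mutants and 12316 to 38414 in controls, so as labelled they did not overlap between genotypes. Of the 5 measured, Hba-a1 had a mean log2 ratio of -1.68 ± 1.03, Slc4a1 -1.32 ± 0.87 and Epb42 -0.28 ± 0.23 (SD, n = 3). These means with array 2 turned were 0.02, -0.70 and -0.26, and Hba-a1 no longer separated the genotypes. The cytokine receptor gene Flt3, which marks the lymphoid-primed part of this gate, had -1.15 ± 0.12, Slamf1, of stem cells, 1.16 ± 1.05, Ly6a 0.82 ± 0.27 and Kit -0.36 ± 0.51. Turning array 2 placed Flt3 at -0.32, Slamf1 at -0.36, Ly6a at 0.48 and Kit at 0.07, so the signs of Slamf1 and Kit rest on that array. The summed signal of T cell markers was 2107 to 2619 in mutants and 2284 to 2828 in controls, and their members included Cd3g at -0.77 ± 0.20, Cd2 at 0.23 ± 0.47, Cd3d at -0.13 ± 0.67 and Cd5 at -0.13 ± 0.26. B cell markers summed to 9323 to 17351 in mutants and 10177 to 12513 in controls, with Vpreb1 at -0.52 ± 0.90, Cd79b at 0.48 ± 0.58 and Igll1 at -0.14 ± 0.39. Macrophage markers summed to 13396 to 16460 in mutants and 11020.5 to 12374.5 in controls, with Adgre1 at 0.94, 1.23 and 0.84 on the 3 arrays, Csf1r at 0.41 ± 0.08, Cd68 at 0.22 ± 0.50 and C1qa at 0.21 ± 0.61. Adgre1 with array 2 turned had a mean of 0.18, Csf1r 0.14 and Cd3g -0.26. Among neutrophil genes Ngp was at -1.95 ± 2.45, S100a9 at -1.94 ± 1.77, Camp at -1.78 ± 0.99 and S100a8 at -1.48 ± 2.07. Of the 7 measured, 6 had a mean below 0 and 1 above, Mmp8 at 0.11 ± 1.55, named after its values were seen. The median of the neutrophil list was -3.65, 0.44 and -1.22 on arrays 1, 2 and 3. The part of any of these cells in the member ratios was not tested.

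Other genes of the p53 network were set beside the members as lists. For these each gene was represented by its kept probe with the highest mean log2 intensity, giving 22222 genes, of which 4.58% were lower and 4.33% higher at an unadjusted p under 0.05 and 0% passed the adjusted test by limma. By this count 2 of the 10 member genes were lower and 0 higher, with a median of -0.45, against -0.04 over all genes. Such a median was not particular to the members. Their 9 measured relatives that are not classical p53 targets also had -0.45, and -0.15 with array 2 turned. Without array 1 the median was -0.04 for the relatives and -0.36 for the member genes. The median with array 2 turned was -0.15 for the member genes, -0.01 for p53 regulators, 0.11 for cell death targets and 0.10 for other targets. On array 1 alone these medians were -0.55, -0.04, -0.17 and -0.04, and on array 2 -0.46, 0.16, 0.08 and -0.31. They were -0.30, 0.30, 0.27 and 0.35 on array 3. Regulators of p53 had a median log2 ratio of 0.06 over 14 measured genes, with 0 lower and 0 higher. Among them were the acetyltransferases Ep300 (-0.43 ± 0.72) and Kat5 (0.31 ± 0.11) and the damage kinases Chek2 (0.31 ± 0.45) and Atm (0.28 ± 0.67). The means of Chek2 and Atm with array 2 turned were -0.17 and -0.28, and those of Ep300 and Kat5 were -0.50 and 0.17.

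The p53 targets that promote cell death lay on both sides of 0, with a median of -0.07 over 12 genes, 1 lower and 2 higher at an unadjusted p under 0.05. Bbc3, which encodes the BH3 protein Puma, had log2 ratios of -1.02, -0.49 and -0.40 and a mean of -0.64 ± 0.34 (SD, n = 3), with all mutants below all controls. Pmaip1, which encodes the BH3 protein Noxa, had -4.23, -0.27 and -0.29, with control signals of 14.55, 10.18 and 10.70 in libraries 1, 2 and 3. On the high side Dram1, a lysosomal protein of autophagy, had 1.23, 0.70 and 0.45, and the nuclease gene Aen had 1.61, 0.17 and 0.41. The 2 genes counted as higher were Dram1 and Siva1, named here after its values were seen, with a mean of 0.63 ± 0.37. Turning array 2 gave means of 0.33 for Dram1, 0.39 for Siva1, 0.62 for Aen, -0.31 for Bbc3 and -1.42 for Pmaip1.

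Further arrest, repair and metabolic targets had a median of -0.09 over 18 genes, with 0 lower and 3 higher at an unadjusted p under 0.05. The 3 were Gtse1, a G2 and S phase gene, with a mean log2 ratio of 0.71 ± 0.31, the metabolic regulator Tigar with 0.83 ± 0.62 and the iron reductase gene Steap3 with 0.93 ± 0.85 (SD, n = 3). Rrm2b, a ribonucleotide reductase subunit, had 0.52 ± 0.81. The mutants lay above all controls for Gtse1, and the groups overlapped for Tigar, Steap3 and Rrm2b. The means with array 2 turned were 0.45 for Gtse1, 0.22 for Tigar, -0.05 for Steap3 and 0.19 for Rrm2b. As labelled, in these 2 target lists genes such as Bbc3 and Pmaip1 lay on the low side, and others such as Dram1 and Gtse1 on the high side. The low mean of Pmaip1 rested largely on array 1. Without that array the means were -0.28 for Pmaip1, -0.44 for Bbc3, 0.57 for Dram1 and 0.56 for Gtse1. None of these genes passed the adjusted test by limma (adjusted p = 0.544 or more).

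**Figure D5:**
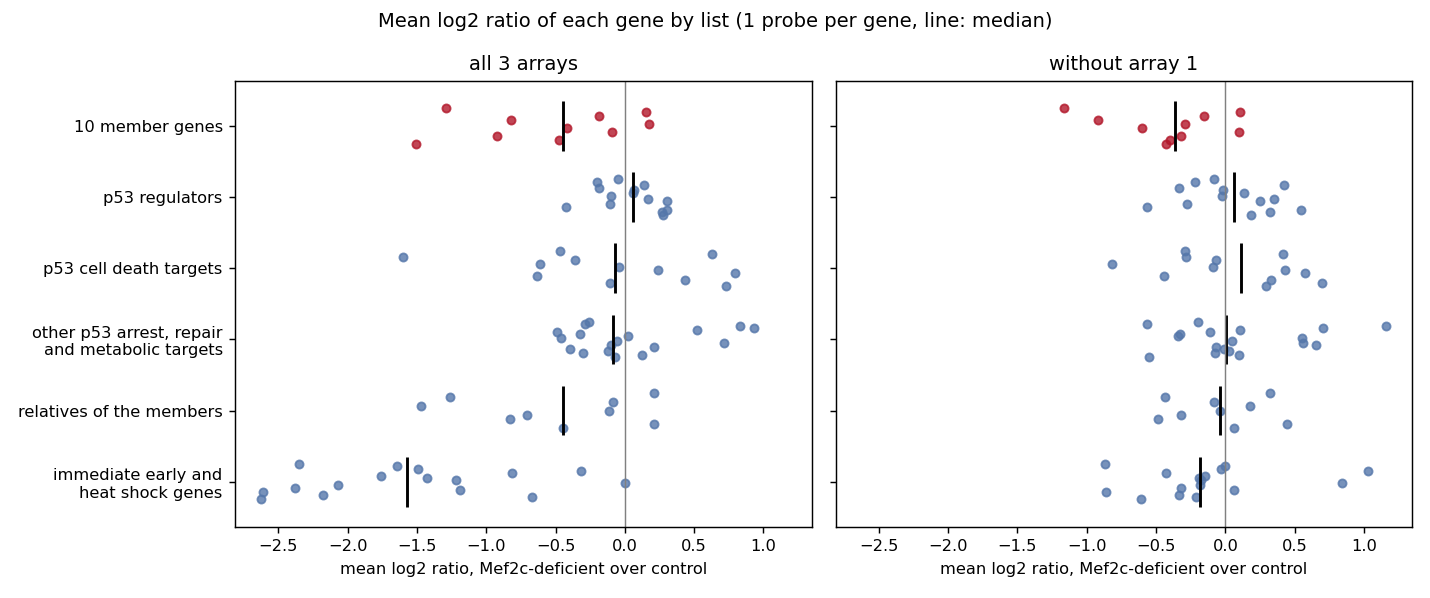
Mean log2 ratio of each gene, Mef2c-deficient over control, by list, over all 3 arrays (left) and without array 1 (right), with 1 probe per gene and the list's median as a line. The member genes have a median of -0.45 with all arrays and -0.36 without array 1, while the median of the immediate early and heat shock genes is -1.57 with all arrays and -0.19 without array 1.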

How the data were processed

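The authors deposited scanner files that, per the file headers, came from Agilent Feature Extraction (9.5.1.1) and hold linear spot intensity in each dye and a Cy5-over-Cy3 log10 ratio. Per the labels' protocols, cDNA made from mRNA was amplified by PCR and 250 ng was labelled. The authors' deposited table holds a log2 ratio per spot, whose normalization the labels leave unstated, with medians of -0.0148, 0.0129 and -0.00249 for arrays 1, 2 and 3. The submitters' processing notes name limma. All 3 arrays lay on 1 slide and were scanned together, so no slide block could be fitted.

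Mean intensities were background-corrected (limma 3.58.1, normexp, offset 50, R 4.3.3) and loess-normalized within arrays, without control spots, and spots marked as outliers were left out. Spots of a probe were averaged. Probes well above background in one channel on at least 2 arrays were kept. Ratios were tested against 0 (lmFit, eBayes) with Benjamini-Hochberg adjustment over all kept probes. Channel signals were set between arrays by Aquantile. No level was compared between probes. Array number limits the precision.

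Beyond Mef2c and the members, up to 4 genes per list were named, those with the largest absolute mean ratio. Members and lists were chosen with earlier results of these data known. List genes took symbols through RefSeq. Probe positions are given only as distances, since the files name no genome build, and genes without a kept probe were left out. Some genes that the naming rule picked are not reported here. Alternatives covered background correction, normalization, filter, deposited ratios, the sign of array 2, gene summaries, unpaired channels, each array left out, and eBayes with trend. The deposited ratios were run with array 2 signed as labelled, so they do not bear on its sign. With the signs as deposited, array 2 runs as in the setting with array 2 turned.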

Additional observations from a re-analysis of the deposited data

How the results depend on the processing

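Under each alternative run, limma called 0 members and 0 probes at an adjusted p under 0.05. Turning array 2 made the members' median log2 ratio -0.18, against -0.57, and the sign changed for Trp53 (-0.22 and -0.37), one Trp53inp1 probe (0.0483), one Sesn1 probe (0.17) and both Sesn2 probes (0.0807 and 0.17). Leaving out 1 array gave medians from -0.63 to -0.40, and changed the sign of Mdm2 A_52_P469842 (-0.25 to 0.10), Ccng1 A_52_P612803 (-0.20 to 1.02) and Phlda3 (-0.29 to 0.51) without array 1 and of both Trp53 probes (-0.0487 to 0.27 and -0.16 to 0.52) without array 2. The number of members lower at an unadjusted p under 0.05 was 5, and 1 without array 2, 8 without array 3, 2 with trend, 11 with median centring, where the median of all probes was -0.15 and the split over all probes was 2739 lower and 802 higher, against 1382 and 1626. Over all probes the lower and higher counts were 636 and 469 with array 2 turned, 441 and 439 with trend, 762 and 853 without array 1, 1117 and 1208 without array 2, and 1556 and 2263 without array 3. With unpaired channels (no replicate block) 0 probes were called. That setting cannot move a mean ratio, so the members' median of -0.57 was the same by construction.

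The arrays number 3, which limits every test. The dyes of array 2 are unsettled, so an effect of the dye was not tested, and the directions of the 6 probes whose sign changes with array 2 depend on the labels.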

Other observations

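Relatives of the members that are not classical p53 targets, as a list, had a median log2 ratio of -1.47, -0.43 and 0.37 on arrays 1, 2 and 3 over 9 measured genes, and 7 of these were highest in control library 1. Ccng2, the relative of Ccng1, had -1.50, -1.34 and 0.37, and Cdkn1b, which encodes the cell cycle inhibitor p27 and is a relative of Cdkn1a, had -1.47, -0.75 and 0.11. Trp53inp2, the relative of Trp53inp1, had -2.93, -1.16 and 0.29. Phlda1, the relative of Phlda3, had -4.77, -0.19 and 0.55, with control signals of 12.80, 8.80 and 8.72 in libraries 1, 2 and 3. Turning array 2 gave means of 0.07 for Ccng2, -0.20 for Cdkn1b, -0.49 for Trp53inp2 and -1.34 for Phlda1. The other 5 genes lay closer to 0 in the mean. At an unadjusted p under 0.05, 0 of the 9 were lower and 0 higher, and 0 passed the adjusted test by limma.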
